A study of Mus musculus with 10 samples.

Results

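Mouse chromosome 4 was followed through 10 ATAC-seq peak lists of bone marrow stromal cells. ATAC-seq uses a transposase that cuts accessible DNA, and a peak is a stretch where cuts pile up. The chromosome was chosen by its name in the first column of the lists, and it was picked for description because its share of the peaks was lower in one of the groups, so that difference is described here without a test. It held 34750 of the 614863 deposited peaks on chromosomes 1 to 19 and X. Lists of unequal length were made comparable by keeping the 39912 strongest peaks of every library by −log10 p, and in these equal-size lists chromosome 4 held 23052 of 399120 peaks.

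All cells came from C57BL/6J mice. Freshly sorted CD45(-) Ter119(-) CD31(-) stroma was divided by Scf-GFP, a reporter in which green fluorescent protein stands in for stem cell factor (gene Kitl), into Scf-GFP(-) cells (2 libraries) and Scf-GFP(+) cells (2 libraries). Scf-GFP(+) stroma was also grown in culture and transduced with a control vector (control stroma, 3 libraries) or with Klf7, Ostf1, Xbp1, Irf3 and Irf7, which gives the cells the submitters call revitalized mesenchymal stem cells (rMSC, 3 libraries). Both cultured groups therefore share the culture and the transduction and differ in what was transduced. The labels do not say whether replicates stem from different animals or cultures. The spread and the p-values therefore describe these libraries and may be technical. Replicate 1 of each group was sequenced on flow cell AHY33MBCXX and the others on AC99CPACXX.

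Scf-GFP(+) perivascular stroma is the main source of stem cell factor and Cxcl12 for blood stem cells, and much of it carries the leptin receptor. An open promoter marks a gene that the transcription machinery can reach, and peaks away from promoters often mark enhancers, whose use differs between cell types more than that of promoters. Chromosome 4 carries Lepr, the leptin receptor, Alpl, the phosphatase of mineralising cells, the nuclear factor I genes Nfia and Nfib, Jun and Klf4, the Cdkn2a and Cdkn2b inhibitors of the cell cycle, the type I interferon genes and, near its distal end, a cluster of zinc finger genes with many near-identical copies.

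Marker loci were counted as peak summits, the highest points of peaks, within a gene body and 10 kb on either side. The 12 stromal markers summed to 8 to 11 summits in Scf-GFP(-), 58 to 75 in Scf-GFP(+), 57 to 67 in control stroma and 44 to 48 in rMSC libraries, with Lepr at 0 in all cultured libraries and Prrx1 and Twist1 at 0 in Scf-GFP(-). The 11 blood markers summed to 51 to 61 in Scf-GFP(-), against 19 to 22 in Scf-GFP(+), 11 to 15 in control stroma and 15 to 16 in rMSC libraries. The 8 endothelial markers summed to 9 to 18, 6 to 7, 9 to 14 and 9 to 11 in the same order. Blood markers were thus open in the Scf-GFP(-) libraries although the label excludes CD45 and Ter119, and Tal1, a regulator of blood development on chromosome 4, had 11 and 14 summits there, 2 and 3 in Scf-GFP(+) and at most 1 in any cultured library. In bulk libraries, fewer cells with an open site and a less open site per cell cannot be told apart.

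The promoters that best show how single sites on the chromosome moved are printed first, because each was in the lists of whole groups and out of the lists of others. They are RefSeq windows of GRCm38.p6 (the coordinates of mm10), 250 bases before to 50 after a gene start, 5′ to 3′ on the gene's strand. Capitals mark matches on either strand to an AP-1 site (TGANTCA, found in 7.85% of the 32619 windows), an interferon-type element (GAAA, any 2 bases and GAAA again, 3.46%), a GC box (GGGCGG, 35.9%), an Xbp1-type element (TGACGTG, 2.03%) or a CCAAT box (CCAAT, 37.6%). Overlapping matches run together. A match describes the letters and no binding.
Lepr: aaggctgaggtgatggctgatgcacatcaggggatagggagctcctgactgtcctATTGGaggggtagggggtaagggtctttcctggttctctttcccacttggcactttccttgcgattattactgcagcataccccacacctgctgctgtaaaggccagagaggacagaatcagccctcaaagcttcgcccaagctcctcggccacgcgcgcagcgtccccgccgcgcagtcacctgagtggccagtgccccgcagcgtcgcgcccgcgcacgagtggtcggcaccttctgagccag
Alpl: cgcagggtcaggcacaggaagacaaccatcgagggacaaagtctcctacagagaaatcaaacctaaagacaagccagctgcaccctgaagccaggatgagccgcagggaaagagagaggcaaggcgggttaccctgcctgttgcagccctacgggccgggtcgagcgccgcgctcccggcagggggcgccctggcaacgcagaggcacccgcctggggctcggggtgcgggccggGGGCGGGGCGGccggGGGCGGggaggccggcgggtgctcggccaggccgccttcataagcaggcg
Cdkn2a: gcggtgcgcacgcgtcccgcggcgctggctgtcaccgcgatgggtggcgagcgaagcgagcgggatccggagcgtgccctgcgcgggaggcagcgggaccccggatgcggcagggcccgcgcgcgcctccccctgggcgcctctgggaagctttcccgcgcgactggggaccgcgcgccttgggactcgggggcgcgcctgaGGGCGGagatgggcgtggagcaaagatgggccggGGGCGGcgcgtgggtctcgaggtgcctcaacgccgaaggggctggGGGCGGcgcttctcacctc
Cavin4: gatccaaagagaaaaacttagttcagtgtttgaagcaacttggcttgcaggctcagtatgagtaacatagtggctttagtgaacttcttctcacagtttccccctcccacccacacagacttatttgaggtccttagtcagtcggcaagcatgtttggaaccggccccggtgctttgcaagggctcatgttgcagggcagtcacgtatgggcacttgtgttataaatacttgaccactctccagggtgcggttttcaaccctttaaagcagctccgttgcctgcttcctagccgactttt
Ephb2: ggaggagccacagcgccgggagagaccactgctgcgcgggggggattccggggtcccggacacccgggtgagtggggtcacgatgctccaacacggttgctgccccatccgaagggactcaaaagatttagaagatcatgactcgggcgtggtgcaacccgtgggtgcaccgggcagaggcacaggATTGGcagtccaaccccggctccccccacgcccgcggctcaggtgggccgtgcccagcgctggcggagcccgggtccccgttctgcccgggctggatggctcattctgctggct
Marcksl1: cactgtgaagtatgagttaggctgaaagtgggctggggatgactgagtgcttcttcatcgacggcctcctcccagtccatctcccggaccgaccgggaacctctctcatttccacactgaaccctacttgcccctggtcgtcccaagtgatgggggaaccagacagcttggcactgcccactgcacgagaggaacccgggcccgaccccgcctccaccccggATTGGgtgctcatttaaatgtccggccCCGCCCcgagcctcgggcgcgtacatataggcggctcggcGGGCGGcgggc
Fblim1: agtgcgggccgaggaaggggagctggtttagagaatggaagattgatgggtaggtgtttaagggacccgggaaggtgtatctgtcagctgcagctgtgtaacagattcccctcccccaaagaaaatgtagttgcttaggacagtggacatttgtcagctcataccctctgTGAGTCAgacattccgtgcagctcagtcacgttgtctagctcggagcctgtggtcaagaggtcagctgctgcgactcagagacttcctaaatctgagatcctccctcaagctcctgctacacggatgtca
Mfsd2a: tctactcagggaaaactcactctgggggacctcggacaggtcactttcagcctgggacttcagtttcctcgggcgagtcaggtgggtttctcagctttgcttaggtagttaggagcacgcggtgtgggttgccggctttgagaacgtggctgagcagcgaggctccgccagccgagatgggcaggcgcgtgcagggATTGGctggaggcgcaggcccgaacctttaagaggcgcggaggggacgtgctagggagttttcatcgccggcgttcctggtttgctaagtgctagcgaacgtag

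The Lepr window (chr4:101717157-101717456, plus strand, 1 CCAAT box) was touched by a peak in both Scf-GFP(+) libraries and in no other. The Alpl window (chr4:137796335-137796634, minus strand, 3 GC boxes) was touched in both Scf-GFP(+) libraries and in rMSC replicate 3, and in no control stroma or Scf-GFP(-) library. The window of Cdkn2a (chr4:89294570-89294869, minus strand, 3 GC boxes) was open in all 8 libraries other than Scf-GFP(-). Cavin4, whose product belongs to the caveolar coat (chr4:48663264-48663563, plus strand, none of the 5 motifs), was open in all 6 cultured libraries and in no fresh one.

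Windows that parted the cultured groups lay in both directions. Ephb2, an ephrin receptor (chr4:136835963-136836262, minus strand, 1 CCAAT box), was open in all Scf-GFP(+) and control stroma libraries and in no Scf-GFP(-) or rMSC library. Marcksl1, an actin-binding substrate of protein kinase C (chr4:129513331-129513630, plus strand, 2 GC boxes and 1 CCAAT box), was open in all 7 libraries other than rMSC. Fblim1, a filamin-binding protein of cell adhesions (chr4:141606003-141606302, minus strand, 1 AP-1 site), and Mfsd2a, a lipid transporter (chr4:122961139-122961438, minus strand, 1 CCAAT box), were open in the 3 rMSC libraries alone.

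In rMSC the chromosome as a whole held fewer of the peaks. It took 4.89, 4.85 and 4.76% of the equal-size lists of rMSC replicates 1 to 3, against 5.98, 5.84 and 5.97% in control stroma. The means were 4.83% ± 0.0678 (SD, n = 3) and 5.93% ± 0.0746 (SD, n = 3), a ratio of 0.815, and the groups did not overlap. The difference in share was −1.09 percentage points within flow cell AHY33MBCXX and −1.10 within AC99CPACXX. In peaks this was 1928 ± 27.1 (SD, n = 3) against 2366 ± 29.8 (SD, n = 3), a difference of −438.7. Such a separation was common: of all 20 chromosomes, every rMSC library was below every control stroma library on 9, chromosome 4 included, and above on 3. Among the 17 chromosomes other than 4, 10 and 15 the ratio of rMSC to control stroma ran from 0.876 to 1.06, while chromosomes 10 and 15 rose to 1.32 and 1.37 times the control share. With those 2 chromosomes left out of the total, the chromosome 4 share went from 6.61 to 5.60%, a ratio of 0.848.

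**Figure D1:**
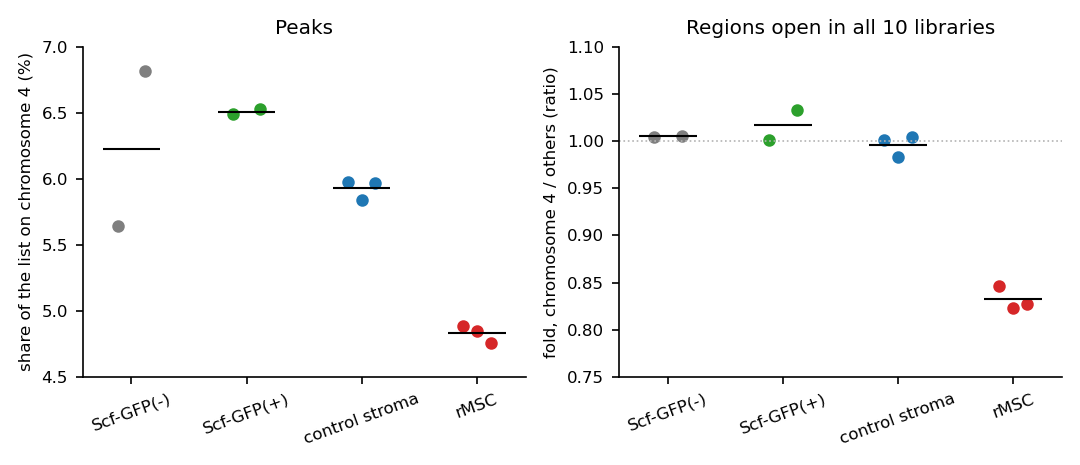
Left, share of each equal-size list on chromosome 4 (percent), and right, the ratio of the authors' fold enrichment on chromosome 4 to that on chromosomes other than 4, 10 and 15 over regions open in all 10 libraries, by group. Points are libraries and lines are group means; the y axes do not start at 0. The 3 rMSC libraries sit lowest in both plots, at 4.76 to 4.89% and at 0.823 to 0.846.

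Both freshly sorted groups had higher means than the cultured ones, but Scf-GFP(-) replicate 1 lay below every control stroma library. Scf-GFP(+) libraries had 6.49 and 6.53% of their peaks on chromosome 4 (6.51% ± 0.0301, SD, n = 2), and Scf-GFP(-) libraries 5.64 and 6.82% (6.23% ± 0.831, SD, n = 2). Control stroma was below both Scf-GFP(+) libraries, with a difference of −0.582 percentage points and an exact two-sided permutation p of 0.2 (n = 3 and 2), the smallest this design allows as computed. For Scf-GFP(+) against Scf-GFP(-) the exact permutation p was 1 (n = 2 and 2; smallest possible 0.333), and the Scf-GFP(-) replicates lay on either side of the Scf-GFP(+) libraries. The difference from control stroma to Scf-GFP(+) was −0.514 within AHY33MBCXX and −0.626 within AC99CPACXX, and that of Scf-GFP(+) to Scf-GFP(-) was 0.847 and −0.286.

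**Figure D2:**
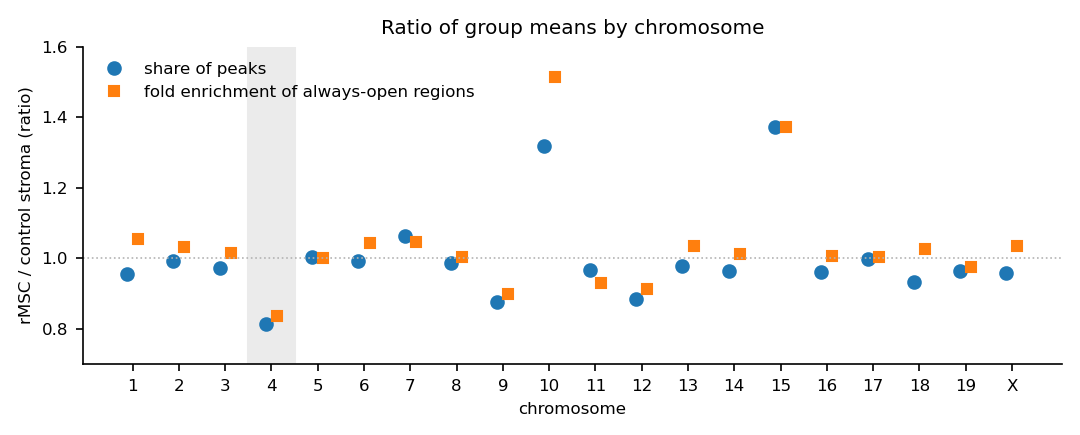
Ratio of rMSC to control stroma by chromosome, for the mean share of peaks (circles) and for the authors' fold enrichment of regions open in all 10 libraries (squares). Chromosome 4, shaded, is lowest by both measures at 0.815 and 0.836, and chromosomes 10 and 15 are highest.

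The median width of peaks on the chromosome was close to that elsewhere. It was 486 bp ± 52.6 (SD, n = 3) in control stroma and 485.5 ± 1.32 (SD, n = 3) in rMSC, against 477 and 494 bp on the other chromosomes. In Scf-GFP(+) it was 496.5 bp, and in Scf-GFP(-) 389 bp, where peaks on the other chromosomes were narrow too (364 bp). The broader peaks differed in rMSC. There the 90th percentile of width was 999 bp (993 to 1003 over the 3 libraries) on chromosome 4. On the other chromosomes it was 1068 bp (1037 to 1116) in rMSC, and in control stroma it was 996 bp on both. For widths the other chromosomes included 10 and 15, whose share of peaks rose in rMSC. Whether they widened that reference was not tested. Covered length fell with the number of peaks, from 1364 kb ± 136 (SD, n = 3) in control stroma to 1110 kb ± 22.3 (SD, n = 3) in rMSC.

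The lower share in rMSC was seen at every strength of peak and was deepest among the strongest. Of the peaks ranked 1 to 10000 in each list, 6.14% lay on chromosome 4 in control stroma and 4.29% in rMSC. The shares were 6.03 and 5.17% for ranks 10001 to 20000, 5.54 and 4.88% for ranks 20001 to 30000, and 6.01 and 4.99% for ranks 30001 to 39912. By place, the gap was smallest at gene starts. Chromosome 4 held 6.13% of control and 5.78% of rMSC peaks within 1 kb of a gene start, 6.27 and 4.76% of those elsewhere in gene bodies, and 5.97 and 4.62% of those outside genes. The 3 control stroma libraries had 607 to 636 peaks at gene starts and the 3 rMSC libraries 582 to 595. In gene bodies they had 925 to 935 and 721 to 734, and outside genes 800 to 829 and 595 to 622. The groups overlapped in none of the classes on chromosome 4, and overlap by class was not counted on other chromosomes. Gene starts therefore made up 26.4% of the chromosome's peaks in control stroma and 30.6% in rMSC. On the other chromosomes they made up 26.3 and 26.2%. Those chromosomes included 10 and 15, whose share of peaks rose in rMSC. Whether the remaining chromosomes changed without them was not tested.

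**Figure D3:**
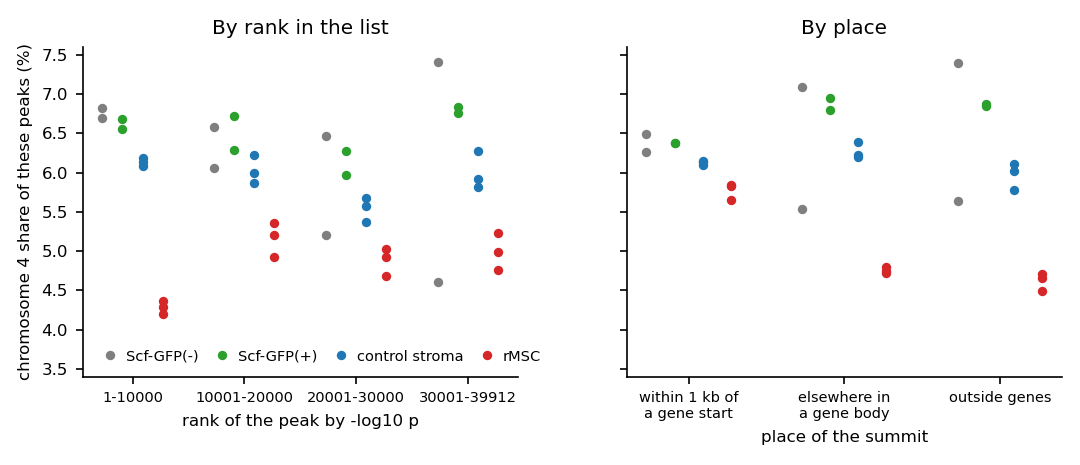
Chromosome 4 share (percent) of the peaks in each class of rank by −log10 p (left) and of place of the summit (right). Each point is a library, coloured by group, and the y axis does not start at 0. The rMSC points lie below the control stroma points in every class, with the widest gap at ranks 1 to 10000 and the narrowest within 1 kb of a gene start.

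Promoters touched by a peak were a minority in each group. A window of at least 1 promoter was touched at 607 ± 8.00 of 1632 genes in control stroma and at 583 ± 9.85 in rMSC (SD, n = 3 each), against 696 ± 1.41 in Scf-GFP(+) and 598 ± 28.3 in Scf-GFP(-) (SD, n = 2 each). As a share of genes this was 37.2 and 35.7% in control stroma and rMSC, and 37.4 and 37.6% on the other chromosomes.

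Sites that stayed open in every library were also weaker on chromosome 4 in rMSC. Peaks of the 10 equal-size lists merged into 6860 regions on the chromosome, of which 583 were open in all 10 libraries. For these, the geometric mean of the authors' fold enrichment was set against that of the 7838 such regions on chromosomes other than 4, 10 and 15, within each list. The ratio was 0.983 to 1.03 in the 7 libraries other than rMSC, and 0.846, 0.823 and 0.828 in rMSC replicates 1 to 3. By arithmetic means, which the strongest peaks weigh on, it was 0.898 to 0.944 in Scf-GFP(+) and control stroma and 0.734 to 0.804 in rMSC, but 0.74 and 0.904 in Scf-GFP(-), so replicate 1 of that group then lay within the rMSC range. Near gene starts (407 regions) it was 1.00 to 1.04 in control stroma and 0.836 to 0.859 in rMSC, and away from them (176 regions) 0.943 to 0.965 and 0.811 to 0.844. Gene starts, which fell little in number, were thus weaker too. In stretches of 20 Mb, every rMSC library was below every control stroma library in 6 of 8, and the exceptions were 20 to 40 Mb and 60 to 80 Mb, which hold 29 and 15 such regions. Stretches of other chromosomes were not counted, so the 6 of 8 has no share beside it and does not show an even weakening. Taken whole, chromosomes 9, 11 and 12 also had every rMSC library below every control stroma library by this ratio. Chromosomes 1, 2, 3, 6, 7, 10, 13, 15 and X had every one above.

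Weak and middling sites were the ones that left the list. Of 1520 regions open in all control stroma libraries, 961 (63.2%) were open in all rMSC libraries and 284 (18.7%) in none. On the 17 other chromosomes together 16.2% were absent from all rMSC libraries, with a range of 11.9 to 19.4% over chromosomes, so chromosome 4 lay inside that range. Among regions with a median control rank of 1 to 5000, 2.15% of 279 were absent, and of 5001 to 10000, 2.52% of 318, beside 0.850 and 5.95% on the others. For ranks 10001 to 20000 it was 23.1% of 511 beside 16.7%, and for 20001 to 39912 it was 36.9% of 412 beside 31.9%. In the other direction, 9.71% of the 1256 regions open in all rMSC libraries were in no control stroma list, beside 12.9% (range 8.95 to 16.6%) on the other chromosomes.

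The loss was spread along the chromosome. Of 28 windows of 5 Mb with a control mean of at least 20 peaks, 22 (78.6%) had fewer peaks in every rMSC library than in any control stroma library. Over the windows of all chromosomes 27.6% did, and 26.9% of the 401 on chromosomes other than 4, 10 and 15. The ratio of rMSC to control stroma was under 1 in 26 of the 28, with a median of 0.799. The other 4 windows held few peaks in control stroma and did not all fall. Every rMSC library was above every control stroma library at 25 to 30 Mb (7, 6 and 8 in control stroma, 14, 12 and 10 in rMSC) and at 35 to 40 Mb (5, 5 and 4, then 8, 9 and 8). At 75 to 80 Mb the groups overlapped (7, 3 and 4, then 4, 5 and 6), and at 90 to 95 Mb rMSC was lower (16, 18 and 21, then 7, 12 and 8). The window with the largest loss, 55 to 60 Mb, had 127, 135 and 128 peaks in control stroma and 91, 89 and 93 in rMSC, which is 8.89% of the whole difference. Next came 135 to 140 Mb with 7.67% and 80 to 85 Mb with 7.07%, so no window carried the difference.

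A few windows departed from that course. The deepest ratio was 0.391 at 65 to 70 Mb, the window of Pappa and Tlr4, with 31, 28 and 28 peaks in control stroma and 13, 9 and 12 in rMSC. At 20 to 25 Mb the ratio was 1.20 (24, 22 and 18 peaks against 25, 25 and 27) and all rMSC libraries were above control stroma, as in 20.2% of windows on all chromosomes. At 110 to 115 Mb, which holds Trabd2b, it was 1.18 (29, 26 and 29 against 29, 36 and 34), with an overlap of the groups. The distal windows from 140 Mb on had ratios of 0.890, 0.909, 0.943 and 0.936.

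**Figure D4:**
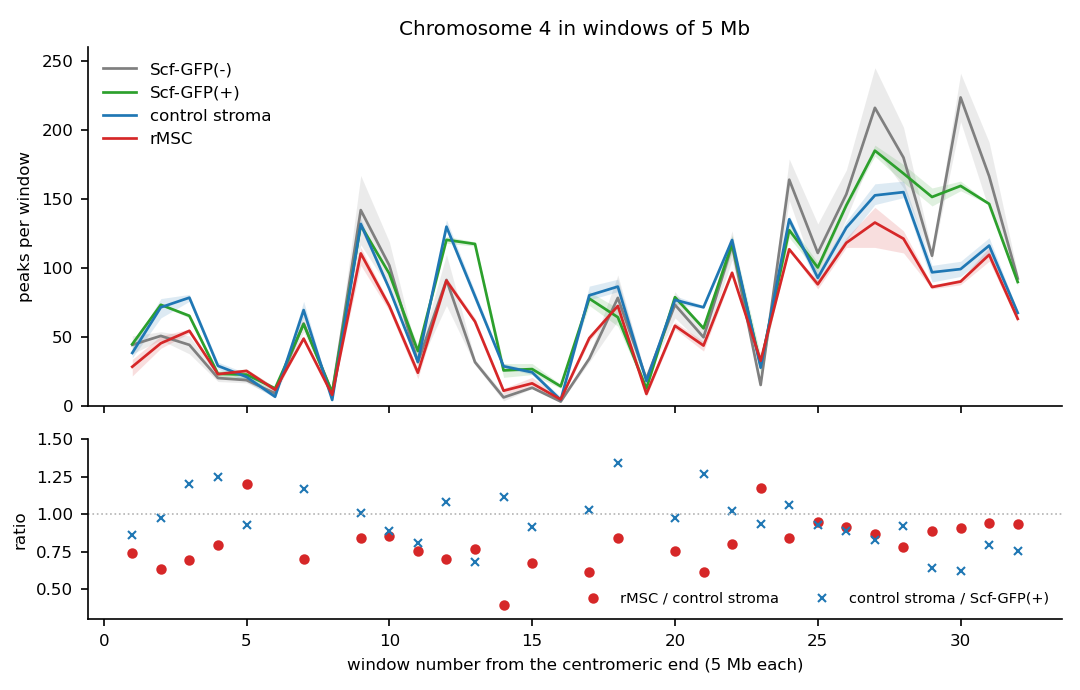
Top, peaks per window of 5 Mb along chromosome 4 from the centromeric end, as group means with the range of the libraries shaded. Bottom, ratios of group means in the 28 windows with a control mean of at least 20 peaks. The rMSC to control stroma ratios (circles) lie under 1 in 26 of 28 windows, whereas the control stroma to Scf-GFP(+) ratios (crosses) scatter on both sides of 1 and are low at the distal end.

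The step from Scf-GFP(+) to control stroma had another shape. Of the 28 windows, 9 had fewer peaks in all control stroma libraries than in both Scf-GFP(+) libraries and 6 had more, beside 25.1 and 30.4% of windows on all chromosomes. Of a mean difference of −232.2 peaks, 25.9% fell in the window at 145 to 150 Mb and 23.5% at 140 to 145 Mb. The former had 156 and 163 peaks in Scf-GFP(+), 99, 94 and 105 in control stroma, 92, 88 and 91 in rMSC, and 241 and 206 in Scf-GFP(-). It holds the starts of 64 protein-coding genes, 16 of them named Zfp, in the cluster of near-identical zinc finger genes, where reads may be placed on the wrong copy, so its counts are uncertain. Without it the share of control stroma differed from that of Scf-GFP(+) by −0.441 points (exact permutation p = 0.2, n = 3 and 2), and that of rMSC from control stroma by −1.08. At 60 to 65 Mb the counts were 119 and 116 in Scf-GFP(+), 76, 80 and 83 in control stroma, 60, 64 and 60 in rMSC, and 30 and 34 in Scf-GFP(-).

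Single loci were tested with limma on log2(summits + 0.5), fitted over the 9150 protein-coding loci of all chromosomes with a mean of at least 2 summits, and Benjamini-Hochberg adjusted over all of them. Of the 1328 protein-coding loci on chromosome 4, 540 passed that filter. The filter can leave out a locus open in 1 group, such as Lepr. It can also let in a locus only through the group where it is high, such as Alpl and Epha2. The p of such a locus is no separate support. Log2 differences are in summits per locus, a number of sites and not their height, and each summit can belong to a neighbour. For a locus at 0 in a whole group no fold is given. Because replicates often hold the same small whole number, a step of 1 or 2 summits can pass.

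Freshly sorted Scf-GFP(+) stroma differed most from Scf-GFP(-). More summits were called at 64 chromosome 4 loci and fewer at 58, beside 13.7 and 16.7% of loci on all chromosomes. The median log2 difference over the 540 loci was −0.18, and over all loci −0.22. With each chromosome's peak total taken out the counts were 62 and 77, and with its median locus taken out 70 and 42. Without Scf-GFP(+) replicate 1 or 2 the loci with more summits were 35 and 39, and without Scf-GFP(-) replicate 2 those with fewer were 30. The narrower peaks and the blood marker summits of the Scf-GFP(-) libraries moved with this comparison, and their part in it was not tested.

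The largest differences on the side of Scf-GFP(+) lay at loci with many sites. Arhgef10l had 12 and 14 summits in Scf-GFP(+) and 0 in both Scf-GFP(-) libraries (adjusted p = 1.88e-05), and kept 7 to 10 in the 6 cultured libraries. Ror1, a receptor of Wnt5a, had 13 and 9 against 0 and 0 (adjusted p = 7.53e-05), then 9, 11 and 12 in control stroma and 5, 3 and 6 in rMSC. Neither locus had a summit in the Scf-GFP(-) lists, and both had several in every other list. Rgs3, which dampens G protein signals, had 20 and 18 summits against 0 and 1, a log2 difference of 4.49 (SE 0.488, adjusted p = 0.000744). It had 7, 11 and 10 in control stroma and 8, 5 and 8 in rMSC. Epha2, an ephrin receptor, had 8 and 7 against 0 and 0 (adjusted p = 0.00609), and Ptprd, a receptor phosphatase, 10 and 13 against 1 and 0 (log2 difference 3.78, SE 0.659, adjusted p = 0.00544). Trabd2b, a protease that acts on Wnt proteins, had 8 and 8 against 1 and 0 (3.29, SE 0.437, adjusted p = 0.0018) and stayed at 7 to 10 in culture.

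Among 34 transcription factor loci on the chromosome, 22 were tested, 7 had more summits in Scf-GFP(+) and 2 fewer. Over loci of all chromosomes 13.7% had more and 16.7% fewer. Nfib had 20 and 18 summits against 2 and 2, a log2 difference of 2.96 (SE 0.165, adjusted p = 3.17e-05). Its relative Nfia had 23 and 23 against 27 and 27 and did not pass (−0.23, SE 0.164, adjusted p = 0.335). The zinc finger genes Zfp462 (5 and 4) and Bnc2 (2 and 2) were at 0 in both Scf-GFP(-) libraries, with adjusted p of 1.88e-05 and 0.000832, as was Zfp618, which is not in the list (8 and 12, adjusted p = 0.000164). Hivep3 had 11 and 13 against 1 and 1 (3.05, SE 0.177, adjusted p = 3.59e-05), and Chd7, a chromatin remodeller, 7 and 10 against 1 and 1 (2.56, SE 0.22, adjusted p = 0.000248). Ski, a repressor of TGF-beta signals, and Id3 also had more. E2f2, a cell cycle factor, had 6 and 4 against 11 and 14 (−1.26, SE 0.323, adjusted p = 0.0235), and Trp73, a p53 relative, 3 and 4 against 10 and 9 (−1.33, SE 0.281, adjusted p = 0.0115).

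Of 12 tested loci of matrix proteins and their enzymes, 5 had more summits in Scf-GFP(+), and the median log2 difference of the 12 was 1.06. Over loci of all chromosomes 13.7% had more and 16.7% fewer, and the median was −0.22. Col27a1, a fibrillar collagen, had 10 and 13 against 1 and 1 (2.99, SE 0.276, adjusted p = 0.000344). Tnc, tenascin C, had 6 and 2 against 0 and 0 (adjusted p = 0.00132), and Pappa, a protease of IGF-binding proteins, 15 and 10 against 1 and 2 (2.72, SE 0.546, adjusted p = 0.00961). Hspg2, perlecan, and Adamtsl1 completed the set. In the list of bone, Wnt and BMP genes, Alpl and Ror1 of 7 tested loci passed. Alpl had 10 and 9 summits against 0 and 1 (3.53, SE 0.655, adjusted p = 0.00709), but passed the filter on the mean only through Scf-GFP(+). Among 15 receptor and kinase loci 6 had more (Ptprd, Ptprf, Epha2, Epha7, Tnfrsf1b and Tnfrsf8) and 2 fewer (Pik3cd and Tnfrsf14), with a median log2 difference of 1.04.

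The other lists were smaller or divided, while 13.7% of loci on all chromosomes had more summits here and 16.7% fewer. Counts for the cell cycle loci and for loci open in nearly all cells lay near or below those shares. Of 10 actin and contractile loci, 4 had more (Tln1, Lurap1l, Arhgef10l and Arhgef19). Of 14 loci of the cell cycle and senescence, 2 had more (Cdkn2c and Pgd) and 3 fewer (Cdc20, Stil and E2f2), and of 7 of lipid metabolism, 3 had more (Plpp3, Scp2 and Ppt1) and 2 fewer (Elovl1 and Prdx1). Cdc20 and Elovl1 are neighbours that share summits and are 1 observation. Of 6 tested blood and niche loci Tlr4, a sensor of bacterial lipid that also stands among the interferon and sensor genes, had more (4 and 3 against 0 and 0, adjusted p = 0.000595) and Lck, a T cell kinase, fewer. Among 17 loci open in nearly all cells, Sdhb and Ube2r2 had fewer.

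Other loci named by the rule had fewer summits in Scf-GFP(+) than in Scf-GFP(-). Anp32b, a histone chaperone, had 1 and 1 against 5 and 7 (−2.10, SE 0.19, adjusted p = 0.00031). Stil, a centriole protein whose flank overlaps that of Tal1, had 1 and 1 against 5 and 6 (−1.99, SE 0.278, adjusted p = 0.00223), and Rbbp4, a subunit of chromatin complexes, 1 and 1 against 4 and 5 (−1.73, SE 0.165, adjusted p = 0.000383). Ptbp3 and Yrdc moved likewise. Of the 51 loci named here by the rule and called in this comparison, 25 kept the call whichever library was left out. Alpl, Tlr4 and Tnfrsf14 kept it where they were tested, but fell below the filter on the mean without some libraries. The other 23 lost it without at least 1 library, among them Pappa (without Scf-GFP(-) replicate 1 or Scf-GFP(+) replicate 1), E2f2 (without Scf-GFP(-) replicate 2 or Scf-GFP(+) replicate 2), Trp73 (without Scf-GFP(+) replicate 1), Id3 and Lck.

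From Scf-GFP(+) to control stroma most called loci had fewer summits. More summits were called at 11 chromosome 4 loci and fewer at 33, beside 5.51 and 5.8% on all chromosomes, and the median log2 difference was −0.08 against −0.02 over all loci. This imbalance depended on the chromosome's total. With the total taken out the counts were 20 and 23, and with the median locus taken out 13 and 26. Leaving out Scf-GFP(+) replicate 1 or 2 left 7 and 9 loci with fewer summits, leaving out control stroma replicates 1 to 3 in turn left 15, 17 and 18, and leaving out rMSC replicate 1 or 2 left 21 and 19. Loci with more summits were 4 without control stroma replicate 2 or 3, and 20 and 18 without Scf-GFP(-) replicate 1 or 2.

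Nfib and Alpl were among the loci with fewer summits. Nfib went from 20 and 18 summits in Scf-GFP(+) to 7, 7 and 8 in control stroma, a log2 difference of −1.32 (SE 0.15, adjusted p = 0.00347). Alpl went from 10 and 9 to 1, 1 and 1 (−2.74, SE 0.598, adjusted p = 0.0297), but lost the call without any 1 of the 3 control stroma libraries. It passed the filter on the mean only through its Scf-GFP(+) counts, so this p is no separate support. The Alpl promoter window printed above lies in the same locus and was picked after its values were seen. Lepr, which did not pass the filter, had 2 and 2 summits in Scf-GFP(+) and 0 in all 6 cultured libraries. Gabbr2, a subunit of the GABA-B receptor, went from 9 and 9 to 3, 2 and 1 (−2.01, SE 0.326, adjusted p = 0.0133), and Ptpn3, a phosphatase, from 9 and 10 to 3, 3 and 4 (−1.39, SE 0.223, adjusted p = 0.0126), and both lost the call without either Scf-GFP(+) library. Chd7 and Ski, open in Scf-GFP(+), also had fewer, at 4, 4 and 3 and at 9, 8 and 9. Zfp978, of the zinc finger cluster, had 40 and 19 summits in Scf-GFP(-), 11 and 17 in Scf-GFP(+) and 0 or 1 in every cultured library (−3.77, SE 0.675, adjusted p = 0.0182), and is uncertain because of its near-identical copies.

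A smaller set opened in culture. Bnc2, a basonuclin zinc finger protein, went from 2 and 2 summits to 6, 9 and 8 (1.69, SE 0.236, adjusted p = 0.00712). Rbbp4 went from 1 and 1 to 4, 3 and 3 (1.34, SE 0.151, adjusted p = 0.00334), and Utp11, a factor of ribosome assembly, from 2 and 2 to 5, 4 and 4 (0.94, SE 0.12, adjusted p = 0.00506). Reck, an inhibitor of matrix proteases, went from 2 and 1 to 3, 5 and 4 (1.19, SE 0.266, adjusted p = 0.0319). Of the 26 named and called loci, Bnc2, Nfib, Rbbp4 and Utp11 kept the call whichever library was left out, and the other 22, Reck included, lost it without at least 1. In the lists, 1 of 22 transcription factor loci had more and 3 fewer, beside 5.51 and 5.8% of loci on all chromosomes. Single members passed among matrix genes (Reck, more), bone genes (Alpl, fewer), receptors (Epha7, fewer), actin genes (Arhgef19, fewer) and lipid genes (Scp2, fewer). Among the cell cycle loci Stil had more and Hdac1 fewer, whose flank holds the Marcksl1 promoter.

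Promoter windows followed the same course. On chromosome 4, 75 of 2053 windows (67 genes) were open in both Scf-GFP(+) and in no control stroma library, which is 3.65% beside 2.87% on all chromosomes, and 5 windows (4 genes) were the reverse, 0.244% beside 0.659%. Besides Cavin4 these 5 were windows of Plekhn1 and of 2 predicted genes. Between the fresh groups 104 windows (89 genes) were open in both Scf-GFP(+) and no Scf-GFP(-) library, beside 4.7% on all chromosomes, and 14 were the reverse, beside 0.819%.

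To tell single loci from the chromosome in rMSC, the log2 ratio of each library's peak total on a chromosome to the mean over libraries was taken out before loci were tested. Beyond the chromosome, 4 loci then had more summits in rMSC than in control stroma and 3 had fewer, beside 0.787 and 0.852% of loci on all chromosomes. At an unadjusted p under 0.05 there were 83 with more and 32 with fewer of the 540, beside 907 and 753 of the 9150 loci on all chromosomes. Without the offset the calls were 2 with more and 8 with fewer, beside 1.05 and 1.02%, and with the median locus of each chromosome as the offset 1 and 5, beside 0.71 and 0.984%. The median log2 difference of the 540 loci was −0.12 without the offset and 0.17 with it. The chromosome's share of peaks had a log2 ratio of −0.296. A median over loci with few summits and a ratio of totals are unlike measures, so their gap does not show a smaller loss at gene loci. The total offset moved the loci up by more than their own median. The balance of calls on the chromosome therefore changed with that choice. With the flow cell as a term 4 of the 7 calls remained (Anp32b, Tnfrsf14, B4galt1 and Plekhm2), and with a replicate block 2 did (Anp32b and Tnfrsf14). Leaving out any 1 control stroma or rMSC library left 1 locus with more summits, and leaving out Scf-GFP(-) replicate 1 or 2 gave 9 and 8. Loci with fewer were 1 without control stroma replicate 1 or 3 and 6 without Scf-GFP(-) replicate 1.

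Anp32b and Tnfrsf14 were called under all 3 offsets and in every other alternative in which they could be tested; without Scf-GFP(-) replicate 2, Tnfrsf14 did not pass the filter on the mean. Anp32b had 1 summit in each Scf-GFP(+) and control stroma library and 3, 4 and 3 in rMSC, a log2 difference beyond the chromosome of 1.64 (SE 0.184, adjusted p = 0.00337). This locus had 5 and 7 summits in Scf-GFP(-). Tnfrsf14, the herpesvirus entry mediator of the TNF receptor family, had 2, 3 and 2 summits in control stroma and 0, 0 and 0 in rMSC (adjusted p = 0.00632), after 2 and 2 in Scf-GFP(+) and 5 and 11 in Scf-GFP(-). It was absent from the rMSC lists alone.

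B4galt1 and Nfia were called under all 3 offsets but not in all other fits. B4galt1, a galactosyltransferase of glycoprotein synthesis, had 8, 4 and 5 summits in control stroma and 1, 1 and 1 in rMSC (−1.69, SE 0.295, adjusted p = 0.0259). It lost the call without control stroma replicate 1 or 3 or without any rMSC library, with adjusted p of up to 0.0912. Nfia had 22, 16 and 21 against 9, 10 and 8 (−0.78 beyond the chromosome, SE 0.152, adjusted p = 0.0379). The groups did not overlap, and the call was lost without 7 of the 10 libraries, with adjusted p of up to 0.125. Nfib stayed at 7, 7 and 8 against 6, 5 and 7 (0.02, SE 0.174, adjusted p = 0.988).

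The remaining calls with more summits depended on the offset. Tgfbr1, the type I receptor of TGF-beta, had 1, 2 and 2 summits in control stroma and 5, 4 and 4 in rMSC (1.49, SE 0.297, adjusted p = 0.0424). It was not called without an offset (adjusted p = 0.0613, range over its alternatives 0.0167 to 0.248). Plekhm2, which links lysosomes to kinesin, went from 2, 2 and 2 to 4, 4 and 4 (1.14, SE 0.216, adjusted p = 0.0351), and Ccdc28b from 2, 2 and 2 to 3, 3 and 3 (0.78, SE 0.16, adjusted p = 0.0473), a step of 1 summit. Each of these 3 lost the call without any single Scf-GFP(+), control stroma or rMSC library.

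**Figure D5:**
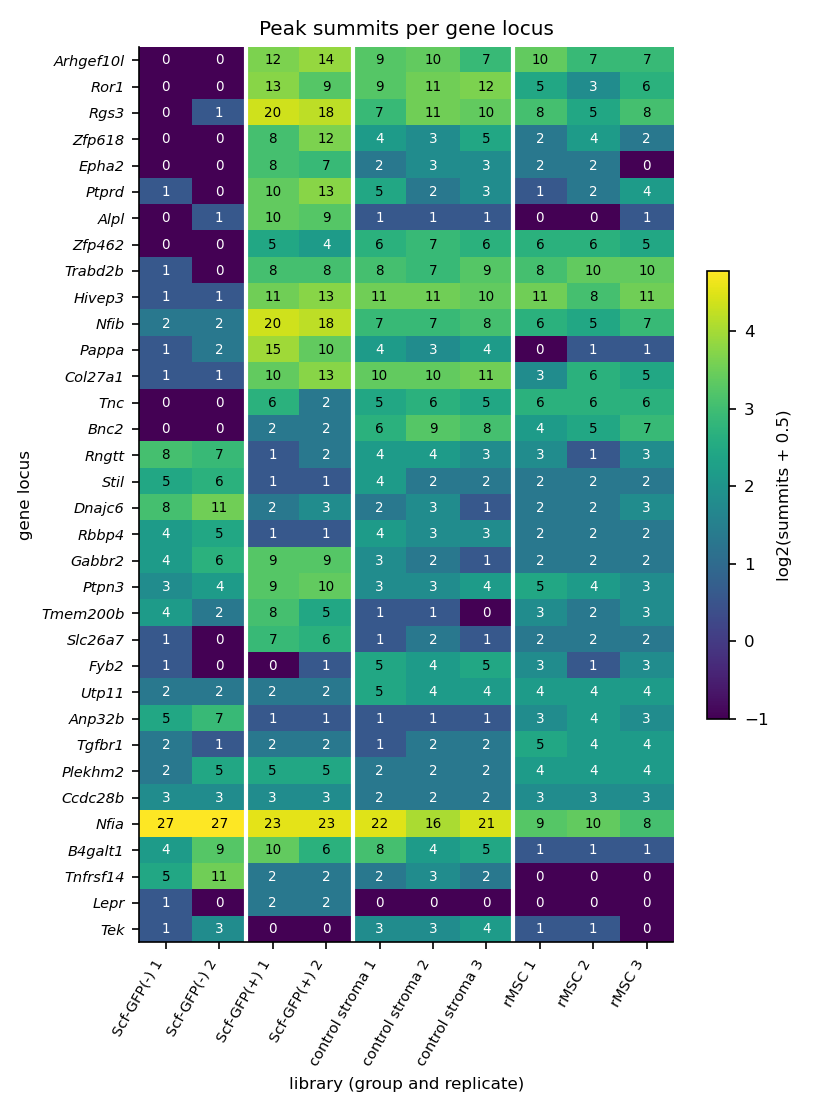
Peak summits (numbers in the cells) at named chromosome 4 loci, flanks of 10 kb included, in each of the 10 libraries, coloured by log2(summits + 0.5); vertical white lines separate the groups. Rows at the top are open in Scf-GFP(+) and near 0 in Scf-GFP(-), and Tnfrsf14 and B4galt1 are at 0 or 1 in all rMSC libraries.

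Several well-known loci of the chromosome did not pass or could not be tested in this comparison. Jun had 4, 2 and 2 summits in control stroma and 2, 4 and 3 in rMSC (adjusted p = 0.443), and Klf4 6, 3 and 4 against 3, 5 and 4 (adjusted p = 0.87). Isg15, an interferon-induced gene, had 4, 3 and 2 against 3, 3 and 3 (adjusted p = 0.495), and Ifnb1, interferon beta, which was not tested, 2, 2 and 1 against 2, 3 and 2. The Cdkn2a locus had 2, 2 and 2 against 2, 3 and 2 and Cdkn2b 1, 1 and 1 against 1, 2 and 1; their flanks overlap and neither was tested. Tek, the angiopoietin receptor, was not tested either and had 3, 3 and 4 in control stroma and 1, 1 and 0 in rMSC. Alpl stayed low, at 1, 1 and 1 and at 0, 0 and 1, and Lepr at 0 in all 6. In the lists, Nfia was the 1 of 22 transcription factor loci called, and Tgfbr1 and Tnfrsf14 were the 2 of 15 receptors. Over loci of all chromosomes 0.787% had more and 0.852% fewer. By limma no member of the other 8 lists was called. At an unadjusted p under 0.05 the matrix list had 3 with more and 3 with fewer of 12 tested. The loci open in nearly all cells had 5 with more and 1 with fewer of 17. Over all tested chromosome 4 loci there were 83 and 32 of 540.

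At promoters, 19 chromosome 4 windows (15 genes) were open in all control stroma and no rMSC libraries, 0.925% of the 2053 beside 0.576% on all chromosomes, and 7 windows (7 genes) were the reverse, 0.341% beside 0.739%. The first set held Marcksl1, Ephb2, Dnajb5, Ak4, Tut4, Rcan3, Tusc1 and Mfap2, a microfibril protein. The second held Fblim1, Mfsd2a, Lurap1l, Ccdc180 and 3 predicted genes. These counts are not corrected for the chromosome and lean the way its total does.

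Away from promoters, regions present in all control stroma lists and absent from all rMSC lists were ordered by their median rank in control stroma. They are not corrected for the chromosome and are not shown to change beyond it. At ranks 1 to 5000, 2.15% of control regions on chromosome 4 were absent, beside 0.850% on chromosomes other than 4, 10 and 15. At ranks 5001 to 10000 it was 2.52% beside 5.95%. The first lay inside Trabd2b (chr4:114533733-114534998, median rank 3169), the third inside Pappa (chr4:65242265-65243882, median rank 4248) and the fifth inside Nfia (chr4:98103881-98104678, median rank 4443), and all 3 were also open in both Scf-GFP(+) libraries. Another 2 among the first 5 lay outside genes, 194152 and 21283 bp from Map3k7, the TAK1 kinase (chr4:31768037-31769340 and chr4:31941476-31942209), and were open in control stroma alone. Regions present in all rMSC lists and no control stroma list had later median ranks, from 8959 on. Ranks were taken over whole lists, in which chromosome 4 peaks as a whole stood lower in rMSC. There were also 122 such gained regions against 284 lost ones, so the later ranks are no separate result. The first gained region lay inside Trabd2b as well (chr4:114601463-114602188) and was in the rMSC lists alone. In that gene 1 site was thus absent from the rMSC lists, and another, of later median rank, was present only there. The Trabd2b locus had 8, 7 and 9 summits in control stroma and 8, 10 and 10 in rMSC. Other gained regions lay 21092 bp from Edn2, endothelin 2 (chr4:120188452-120189319), inside Tnfrsf1b, a TNF receptor (chr4:145229673-145230239), and 45311 bp from Wnt4 (chr4:137231162-137232324). The last 2 were also open in both Scf-GFP(+) libraries and in no control stroma library.

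The sites that appeared between Scf-GFP(+) and control stroma included high-ranking peaks. The strongest region of control stroma that was absent from both Scf-GFP(+) lists lay inside Pdpn, podoplanin, a membrane glycoprotein of stromal cells (chr4:143278058-143279009, median rank 537). The next lay 69856 bp from Ifne (chr4:88950057-88951372, median rank 1763), and the third inside Hivep3 (chr4:119932384-119933568, median rank 2706). All 3 were open in the 6 cultured libraries and in no fresh one.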

How the data were processed

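ATAC-seq peak lists of 10 libraries were analysed, 1 list per library as called by the authors. The submitters' processing notes name BWA, MACS2 and mm10; software versions: not given in the sources used here. In the lists, the deposited columns are the authors' fold enrichment (a ratio to background), −log10 p, −log10 q and a score, which ranked or filtered peaks within a list. Read depth is unknown, so a site missing from a list can be open but undetected.

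Peaks on chromosomes 1 to 19 and X entered, cut to the 39912 with the highest −log10 p in each list, ties broken by fold and then at random with a fixed seed. Genes and promoter windows came from RefSeq tables of GRCm38.p6, whose coordinates are those of mm10; windows of chromosome 18 were not used here. Regions were merged over lists, with any shared base as overlap. Locus summits were fitted with limma 3.58.1 in R 4.3.3, with a trend, all 4 groups in 1 fit (6 residual and 1.62 prior degrees of freedom), two-sided, threshold 0.05; the test was tried on simulated counts. Shares were compared by exact permutation in scipy 1.17.1.

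Loci were named by a rule: up to 10 non-overlapping calls in each direction with the largest change, 1 of those within 50 kb, all passing list members, and 13 genes whatever their p. Exclusive regions were ordered by rank; the printed promoters were picked after their values were seen. The chromosome, lists and tests were chosen with earlier results of these data known. Alternatives covered the list, threshold, filter, pseudocount, flank, offset, groups, replicate block, flow cell, ties and left-out libraries.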

Additional observations from a re-analysis of the deposited data

How the results depend on the processing

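The fall of chromosome 4 in rMSC kept its direction under every alternative run: −1.22 percentage points with all deposited peaks, −1.36 and −1.85 with the 20000 and 10000 strongest, −1.35 by covered bases and −1.01 without chromosomes 10 and 15. For control stroma against Scf-GFP(+) it was −0.475 with the 20000 or the 10000 strongest, −0.514 within flow cell AHY33MBCXX and −0.441 without the zinc finger window. Scf-GFP(+) against Scf-GFP(-) turned from 0.281 to −0.14 with the 10000 strongest, −0.0394 at a −log10 q of at least 5 and −0.286 within AC99CPACXX, and ran from −0.307 to 0.868 with a library left out. Control regions absent in rMSC were 30.3% when a peak had to cover 50% of the region and 20.7 to 22.8% with a library left out.

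Counts of loci moved with the settings, and the causes were not tested. They are given as more and fewer summits. All deposited peaks gave 13 fewer for Scf-GFP(+) against Scf-GFP(-), 18 and 6 for control stroma against Scf-GFP(+), and 7 fewer for rMSC. A −log10 q of at least 5 gave 18 fewer, 41 and 11, and 11 and 10. A mean of at least 1 summit gave 26 and 52, and 9 and 10 for the last 2 comparisons, and no filter gave 97 and 93, 32 and 67, and 18 and 15. Peaks above the tied class gave 103 fewer, 28 and 19, and 7 and 6. A flank of 2 kb gave 34 fewer in the first comparison, and fitting the 2 groups alone gave 26 more there and 9 more in rMSC. The flow cell as a term gave 2 more in rMSC. Offsets gave 20 more for control stroma (total), and 2 and 8 (none) and 1 and 5 (median) for rMSC. With a library left out the ranges were 35 to 71 more and 30 to 64 fewer, 4 to 20 and 7 to 42, and 1 to 9 and 1 to 6. Leaving out a library kept 61 to 108 of the 122 calls, 11 to 41 of the 44 and 2 to 7 of the 7. Among all called loci, the sign changed at 3 with a −log10 q of at least 5 and at 2 above the tied class in the first comparison, and at 2 with a 2 kb flank in the second. For single named loci, 1273 fits kept a call and its direction and 456 lost the call. Of fits for named loci without a call, 350 stayed without and 6 gained one.

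Deviations from the group mean correlated at −0.0208 to 0.0161 over 13 same-numbered pairs of libraries, beside −0.0199 to 0.0222 for different numbers. The numbers were not taken as pairs. In groups of 2 libraries the deviations are mirror images, so the different-numbered pairs are no separate reference. Replicate 1 of each group was also the one on flow cell AHY33MBCXX, so pairing and flow cell cannot be told apart. A replicate block gave 3 and 9 loci for control stroma and 1 and 1 for rMSC. The ties, the 2 chromosomes and the zinc finger window were chosen after seeing the data. Without read depth, an absent peak is not a closed site.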
